A study of Mus musculus with 86 samples.

Results

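The SOX2 and CTCF peak lists of mitotic mouse embryonic stem cells were set against each other. Members were all intervals of the 4 lists deposited for these cells, 2 per factor, and no peak was selected by its value. They numbered 37864 peaks of the 327957 in the 8 lists used here, and the other 290093 peaks came from asynchronous cells and served as background. The series holds 86 ChIP-seq libraries (chromatin immunoprecipitation with sequencing), and the 52 of histone marks and 26 of input DNA were left aside. All cells were embryonic stem cells of strain 129S5/SvEvBrd, self-renewing cells of the early embryo, grown on gelatin in serum with leukemia inhibitory factor. The mitotic groups were treated with nocodazole, a microtubule poison, at 100 ng/ml for 6 h and collected by shake-off, and the asynchronous groups were not. SOX2 was precipitated with antibody AF2018 (R&D) and CTCF with antibody ab70303 (Abcam), so that factor and antibody cannot be told apart. Nothing in the labels says that the 2 replicates of a group were separate cultures, and the spread between them may be technical.

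SOX2 is an HMG-box transcription factor that binds short motifs in the minor groove, often beside OCT4, and helps to keep stem cells pluripotent. CTCF is a zinc finger protein with a long, well-conserved motif. It halts cohesin at the anchors of chromatin loops and separates neighbouring regulatory domains. Mitotic chromosomes are compacted, lack most loops and are largely silent, and factors differ in how much of their binding can be detected on them.

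Promoters with a summit of either factor show the kind of sequence on which the peaks lay. A summit is the base of highest coverage in a peak. The 250 bases upstream of the start of 6 genes follow, from RefSeq on GRCm38.p6 (the assembly of mm10), each read 5′ to 3′ on the strand of the gene. They belong to the strongest regions of each kind among those with a summit from 250 bases before to 50 after a start, where strength is the percentile of a region's fold in its own lists averaged over the libraries. Gadd45g and Polr3e lay in regions called for both factors, Srrm4 and Pipox in regions called for SOX2 alone, and Nipsnap2 and Alg5 in regions called for CTCF alone. Capitals mark matches on either strand to CATTGT (a SOX2 core), ATTTGCAT (the octamer read by OCT4), AGGNGGC (the core of the CTCF motif) or GTTCNANNC (the B box of RNA polymerase III genes).
Gadd45g: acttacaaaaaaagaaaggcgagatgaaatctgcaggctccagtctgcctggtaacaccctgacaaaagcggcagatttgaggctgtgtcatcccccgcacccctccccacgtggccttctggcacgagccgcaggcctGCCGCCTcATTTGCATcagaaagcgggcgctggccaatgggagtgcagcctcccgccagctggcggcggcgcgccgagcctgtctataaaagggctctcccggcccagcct
Polr3e: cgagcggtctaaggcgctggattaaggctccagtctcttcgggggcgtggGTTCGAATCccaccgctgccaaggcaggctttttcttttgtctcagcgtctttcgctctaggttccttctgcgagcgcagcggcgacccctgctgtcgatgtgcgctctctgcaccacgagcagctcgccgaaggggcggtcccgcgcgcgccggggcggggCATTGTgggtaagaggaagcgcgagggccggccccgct
Srrm4: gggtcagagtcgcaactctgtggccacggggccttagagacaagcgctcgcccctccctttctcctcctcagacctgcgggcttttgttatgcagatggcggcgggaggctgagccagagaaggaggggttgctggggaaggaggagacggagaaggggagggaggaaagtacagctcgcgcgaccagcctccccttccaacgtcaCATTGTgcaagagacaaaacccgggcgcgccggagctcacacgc
Pipox: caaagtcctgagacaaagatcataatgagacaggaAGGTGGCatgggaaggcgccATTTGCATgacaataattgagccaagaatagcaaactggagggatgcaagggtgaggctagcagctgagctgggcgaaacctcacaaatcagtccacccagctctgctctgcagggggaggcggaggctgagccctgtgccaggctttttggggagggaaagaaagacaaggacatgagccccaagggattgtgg
Nipsnap2: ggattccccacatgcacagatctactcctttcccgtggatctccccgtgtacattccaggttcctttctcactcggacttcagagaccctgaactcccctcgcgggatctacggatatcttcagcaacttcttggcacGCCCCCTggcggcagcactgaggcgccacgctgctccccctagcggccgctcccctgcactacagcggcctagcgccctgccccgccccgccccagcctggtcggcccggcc
Alg5: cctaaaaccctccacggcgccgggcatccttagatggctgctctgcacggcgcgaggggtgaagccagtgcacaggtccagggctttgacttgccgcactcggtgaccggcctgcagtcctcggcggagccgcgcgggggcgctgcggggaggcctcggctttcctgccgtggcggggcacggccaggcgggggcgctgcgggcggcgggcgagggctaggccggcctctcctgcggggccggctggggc
Gadd45g, a growth arrest and stress gene (13:51846425-51846674, plus strand), held an octamer and a CTCF core match side by side. Its SOX2 summit lay 91 bp before the start, with summit folds of 6.38 and 6.89 in SOX2 replicates 1 and 2. Polr3e, which encodes a subunit of RNA polymerase III (7:120917528-120917777, plus strand), held a B box match and the SOX2 core, with SOX2 folds of 6.96 and 4.74 and a SOX2 summit 174 bp before the start. Srrm4, the gene of a neural splicing factor (5:116591818-116592067, minus strand), also held the SOX2 core, with folds of 13.0 and 14.8 and a summit 170 bp before the start. In Polr3e and Srrm4 the marked SOX2 core lay between the SOX2 summit and the start, away from the summit itself. Pipox, which encodes a peroxisomal oxidase (11:77893873-77894122, minus strand), held an octamer and a CTCF core match, with SOX2 folds of 13.8 and 8.74. Nipsnap2 (5:129724825-129725074, plus strand) held a CTCF core match and had CTCF folds of 31.5 and 26.4. Alg5, of protein glycosylation (3:54735289-54735538, plus strand), held none of the 4 motifs in these bases and had CTCF folds of 29.8 and 22.8.

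Far fewer peaks were called for SOX2 than for CTCF in mitosis. The lists held 1976 and 408 SOX2 peaks and 20142 and 15338 CTCF peaks in replicates 1 and 2. The means were 1192 ± 1109 (SD, n = 2) for SOX2 and 17740 ± 3397 (SD, n = 2) for CTCF, or 14.9-fold more for CTCF. Both SOX2 lists were shorter than both CTCF lists, whereas the asynchronous lists overlapped in length (90266 and 63504 for SOX2, 68328 and 67995 for CTCF). Depth differed in the same direction: the background coverage recovered from the lists was 2.62 and 1.64 reads per 100 bp for mitotic SOX2 and 3.62 and 3.77 for mitotic CTCF. In asynchronous cells it was similar, at 2.48 and 1.61 for SOX2 and 3.36 and 3.71 for CTCF. The median mitotic summit held 28 and 23 reads for SOX2 and 46 and 43 reads for CTCF, and the part of depth in the peak numbers was not tested. In all, 11 measures of the lists were compared between the factors. The SOX2 and CTCF libraries did not overlap in any of the 11 (100.0% of the measures), and each gave an exact two-sided permutation p of 0.333 (0.333 after Benjamini-Hochberg adjustment), the smallest p that 2 libraries against 2 allow. The measures taken against the other factor's lists depend on the lengths of the lists, so they are not separate from peak number.

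About 1 SOX2 peak in 5 overlapped a CTCF peak, and about 1 CTCF peak in 50 overlapped a SOX2 peak. At least 1 bp was shared with a peak of either mitotic library of the other factor by 21.3% and 18.1% of SOX2 peaks in replicates 1 and 2. The shares of CTCF peaks were 2.04% and 1.76%. In asynchronous cells the shares were closer together, at 25.2% and 24.7% for SOX2 and 30.7% and 31.0% for CTCF. Between single mitotic libraries, SOX2 replicate 1 and CTCF replicate 1 had the most in common, with 404 SOX2 peaks (20.4% of that list) on 403 CTCF peaks (2.0%). SOX2 replicate 2 and CTCF replicate 2 had the least, with 50 SOX2 peaks (12.3%) on 46 CTCF peaks (0.3%). The overlapping peaks thus number nearly the same from either side, and the gap between the factors' shares follows the lengths of the lists. Without CTCF replicate 1 the mean shares differed by 11.1 percentage points in place of 17.8, and by 7.81 when only peaks of a fold of 5 or more were used.

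Few of the strongest peaks of 1 factor met the strongest peaks of the other. With each list shortened to its 408 strongest peaks by fold, the share overlapping the other factor was 0.245% and 0.735% for SOX2 and 0.735% and 0.49% for CTCF, or at most 3 peaks of any list. Shortening took away the weaker peaks of the longer lists and made all lists equally long at once. SOX2 replicate 2 held 408 peaks and lost none, so its share fell from 18.1% to 0.735% through the shorter CTCF lists alone. In lists of equal length the overlapping peaks number nearly the same from either side, so these shares do not test the difference between the factors.

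Overlap did not follow the strength of the SOX2 peaks. With each list divided by fold into 4 equal parts, the overlap in SOX2 replicate 1 was 25.1% in the strongest part, 16.3% in the third and 23.3% in the weakest. In SOX2 replicate 2 it was 12.7% in the strongest part and 29.4% in the weakest. The CTCF lists stayed at or under 3.02% in each part, the value of the weakest part of replicate 1.

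**Figure D1:**
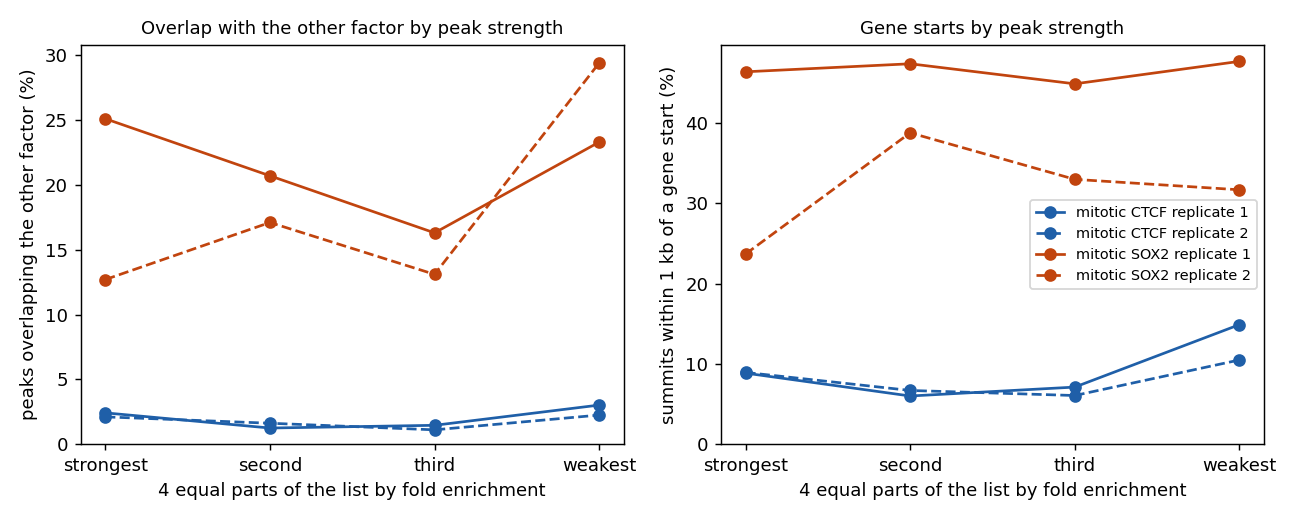
Each mitotic list was ranked by fold enrichment and divided into 4 equal parts (x axis). Points give the percentage of peaks in a part that overlapped a peak of the other factor (left) or had their summit within 1 kb of a gene start (right), with SOX2 in orange, CTCF in blue and replicate 2 dashed. In both panels the SOX2 lines lie above the CTCF lines in every part, from 12.7% against at most 3.02% on the left.

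Where peaks of the 2 factors overlapped, their summits lay farther apart than those of replicates of 1 factor. The median distance between summits of overlapping SOX2 and CTCF peaks was 99 to 131 bp for the SOX2 libraries. Between replicates it was 46 bp for SOX2 and 26 to 27 bp for CTCF. Summits lay within 100 bp of each other in 40.6% to 50.7% of SOX2 peaks that overlapped a CTCF peak, against 77.5% to 77.7% between SOX2 replicates and 94.3% to 95.2% between CTCF replicates.

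Measured over all peaks, 9.77% and 10.5% of SOX2 summits had a CTCF summit within 100 bp, and 0.869% and 0.874% of CTCF summits had a SOX2 summit that near. The median distance to the nearest summit of the other factor was 12136 and 15004 bp from SOX2 and 300230 and 296218 bp from CTCF. With the 408 strongest peaks of each list they were 743310 and 1134246 bp for SOX2 and 762494 and 771674 bp for CTCF, and 0.245% of summits lay within 100 bp in every list. Without CTCF replicate 1 the difference in the share within 100 bp was 5.43 percentage points in place of 9.28, and without SOX2 replicate 1 the difference in median distance was -1589932 in place of -284654 bp.

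**Figure D2:**
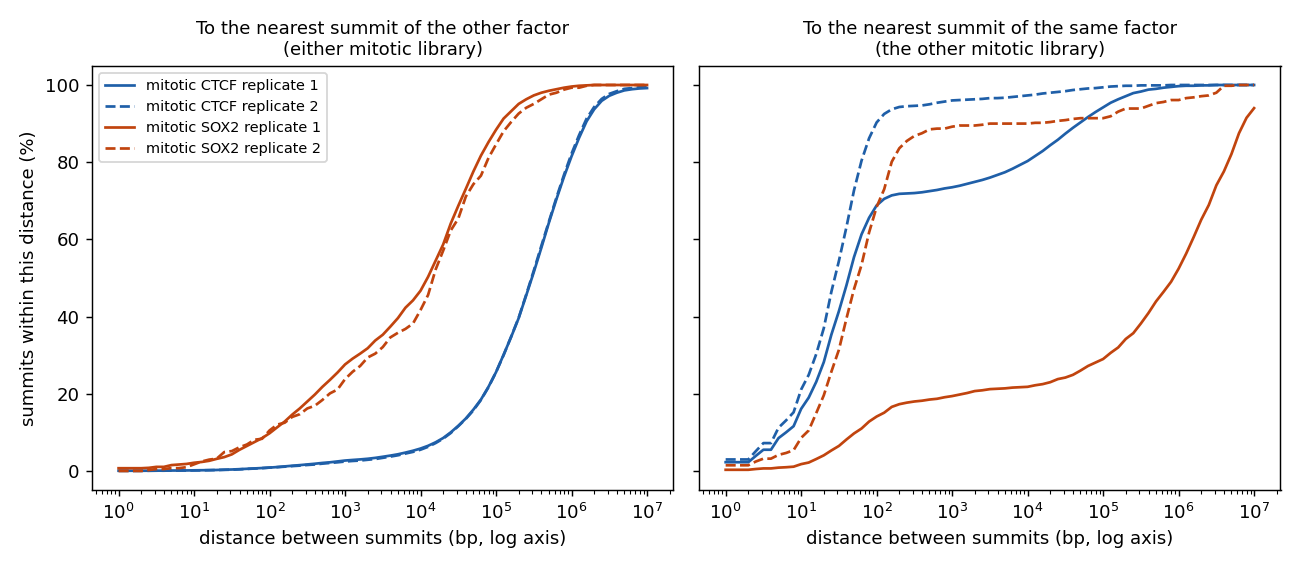
Cumulative share of mitotic summits (y axis, %) that had a summit within the distance on the x axis (bp, log axis), for the nearest summit of the other factor (left) and of the same factor in the other library (right). On the left both SOX2 curves rise at shorter distances than the CTCF curves (medians 12136 and 15004 against 300230 and 296218 bp), and on the right SOX2 replicate 1 stays low, where 18.2% of its peaks overlapped a peak of replicate 2.

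Regions found in both mitotic libraries of a factor were then classed by the other factor. Overlapping peaks of the 2 libraries were merged, which gave 356 SOX2 regions and 14512 CTCF regions. Of the SOX2 regions, 282 (79.2%, 95% Wilson interval 74.7 to 83.1) met no mitotic CTCF peak, 52 (14.6%, 11.3 to 18.7) met a CTCF region of both libraries, and 22 met a CTCF peak of 1 library or outside those regions. Of the CTCF regions, 14238 (98.1%) met no mitotic SOX2 peak, 51 (0.351%, 0.267 to 0.462) met a SOX2 region and 223 met another SOX2 peak. These intervals cover counting error only.

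A CTCF peak in asynchronous cells was found under many SOX2 regions that had none in mitosis. Of the 282 SOX2 regions without mitotic CTCF, 98 (34.8%, 29.4 to 40.5) had a CTCF peak in both asynchronous libraries and another 67 in 1 of them. At the remaining 117 (41.5%, 35.9 to 47.3) no CTCF peak was called in any of the 4 CTCF libraries. Of the 14238 CTCF regions without mitotic SOX2, 2773 (19.5%) had a SOX2 peak in both asynchronous libraries and 8671 (60.9%) in neither. All but 2 of the 356 SOX2 regions had SOX2 peaks in both asynchronous libraries, and 14452 of the 14512 CTCF regions (99.6%) had CTCF peaks in both. The SOX2 region that no asynchronous SOX2 library called lay 29.6 kb from Vmn1r77, and no CTCF library called it either.

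The shared regions formed 53 overlapping pairs, since some regions met more than 1 of the other factor. The median over pairs of the summit distance was 135 bp, where SOX2 replicates differed by 44 bp and CTCF replicates by 33 bp in the same pairs. All 4 SOX2 to CTCF distances were within 100 bp in 13 pairs and over 100 bp in 25. In 24 pairs the shortest of the 4 distances exceeded the distances between replicates of both factors. Strength, the percentile of a region's fold in its own lists averaged over both libraries, had a Spearman rho of 0.352 and a Pearson r of 0.434 between the factors across the 53 pairs, which share libraries and are not independent. The coefficients include 5 pairs with all 4 folds under 2, the lowest in strength for both factors, and were not computed without them. A strength of 75 or more was reached for both factors in 4 pairs, for SOX2 alone in 12, for CTCF alone in 9 and for neither in 28.

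**Figure D3:**
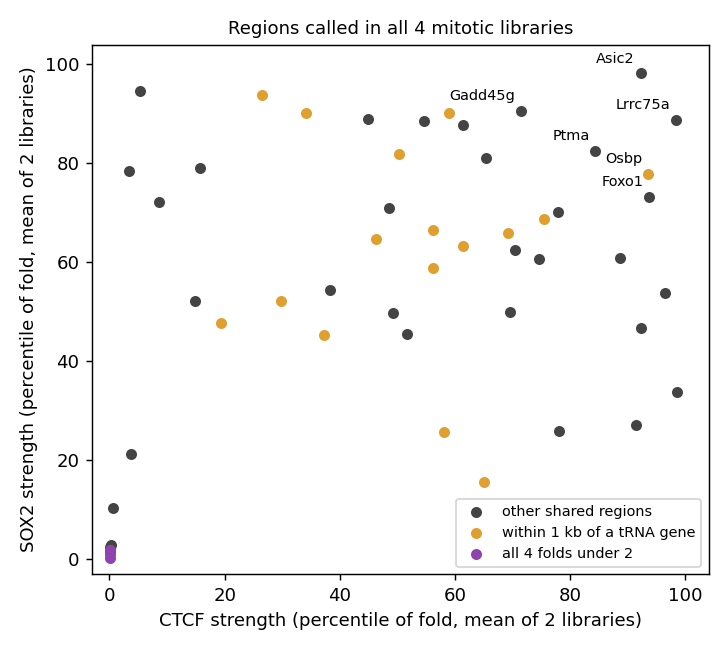
Each point is 1 of the 53 pairs of regions called in all 4 mitotic libraries, placed by the CTCF strength (x axis) and the SOX2 strength (y axis), both as percentiles of fold averaged over 2 libraries. Points are spread over most of the plane, those within 1 kb of a tRNA gene (yellow) lie mostly in its middle, and the 5 pairs with all 4 folds under 2 (purple) lie at the lower left, with strengths of at most 1.89.

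The strongest shared region lay inside Asic2, which encodes an acid-sensing ion channel. Its SOX2 region (11:81612735-81613760, mm10) had SOX2 folds of 14.8 and 9.46 on 95 and 51 summit reads. The CTCF folds there were 10.1 and 9.08 on 121 and 96 reads. Its SOX2 and CTCF summits lay 283 to 335 bp apart, against 35 bp between SOX2 replicates and 17 bp between CTCF replicates, so that the 2 factors peaked at separate places in overlapping intervals. In contrast, the summits nearly coincided inside Mkrn1, the gene of a ubiquitin ligase (6:39400305-39400727), at 1 to 19 bp. There the SOX2 folds were 4.45 and 4.73 and the CTCF folds 13.3 and 9.53. Inside Lrrc75a (11:62613659-62614218) the SOX2 folds were 5.83 and 6.80, the CTCF folds 15.4 and 10.8, and the summits 3 to 120 bp apart.

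At 2 gene starts the intervals overlapped only at their edges. At the start of Gadd45g (SOX2 region 13:51845899-51846837), where CTCF folds were 8.65 and 5.05, the CTCF summits lay 1615 to 1721 bp from the SOX2 summits. They lay outside the promoter bases printed above. At the start of Ptma, which encodes prothymosin alpha (1:86526323-86527630), SOX2 folds were 4.99 and 6.59, CTCF folds 9.74 and 6.58 and summits 1015 to 1167 bp apart. The region's SOX2 summit lay 76 bp past the start, so its promoter was not among those printed.

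A further 4 of the strongest shared regions lay near genes of several kinds. The region 3.95 kb from H2-K1, a major histocompatibility gene (17:33991893-33992311), had SOX2 folds of 4.95 and 4.84 and CTCF folds of 10.6 and 7.27. The region nearest to Foxo1, a forkhead factor gene 71.7 kb away (3:52196470-52196936), had SOX2 folds of 5.88 and 5.15 and CTCF folds of 14.0 and 7.88. The remaining pair covered tRNA genes, near Osbp (19:12010775-12012484, SOX2 folds 9.91 and 5.21, CTCF folds 10.9 and 9.08) and near the histone gene H4c8 (13:23516824-23517818, SOX2 folds 6.43 and 6.80, CTCF folds 6.49 and 4.54). All of these strongest shared regions had peaks in both asynchronous libraries of both factors.

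At 5 of the 53 pairs the folds of both factors were below 2 in all 4 libraries. At 3 of them (17:39843104-39847254, 17:39847809-39848212 and 17:39848298-39848714) the SOX2 region overlapped Rn18s-rs5, annotated as a pseudogene of 18S ribosomal RNA, or the noncoding gene AY036118, or both, and all 3 met the same CTCF region. The others lay nearest to Ly6c2 and Vmn1r238. The SOX2 folds at the 5 pairs were 1.29 to 1.86 and the CTCF folds 1.28 to 1.37, and at the 3 where whole reads were recovered for SOX2 replicate 2 its summits held 239 to 294 reads. These pairs were picked after their values were seen. Only 1 of the 14238 CTCF-only regions and 0 of the 282 SOX2-only regions (an interval of 0 to 1.34%) had a fold under 2 in both libraries.

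A larger share of the shared regions than of the regions of 1 factor lay near tRNA genes, a difference described here without a test. Such genes are short, are transcribed by RNA polymerase III and occur in clusters. Within 1 kb of a tRNA gene were 15 of the 52 shared SOX2 regions (28.8%, 18.3 to 42.3) and 6 of the 282 SOX2-only regions (2.13%, 0.979 to 4.56). Of the CTCF-only regions it was 52 of 14238 (0.365%, 0.279 to 0.479). Among the shared ones were those at Hes7, a Notch pathway gene with 2 tRNA genes in the interval, chosen after its values were seen, and at Polr3e, whose region covered a leucine tRNA gene (7:120917353-120917768, CTCF folds 9.15 and 3.68, summits 7 to 44 bp apart). The regions within 1 cluster are neighbours and not separate cases.

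By library, 113 and 22 SOX2 summits lay within 1 kb of a tRNA gene, or 5.72% and 5.39% of the lists. For CTCF it was 170 and 126 summits, or 0.844% and 0.821%. In all 4 mitotic lists the share was higher than in the asynchronous lists, which gave 0.271% to 0.37%. The counts stood the other way, with 255 and 235 such summits in the asynchronous SOX2 lists and 185 and 190 in those of CTCF. The higher shares in mitosis thus came with fewer such summits in shorter lists. Mitotic and asynchronous lists held 20142 and 15338 against 68328 and 67995 peaks for CTCF. For SOX2 they held 1976 and 408 against 90266 and 63504. Lists of equal length were not compared between the states, and the cause of the higher shares was not tested. Chromosome 13, with its large tRNA clusters, held 50 of the 113 summits in SOX2 replicate 1 and 61 of the 170 in CTCF replicate 1. With 408 peaks per list the shares were 8.09% and 5.39% for SOX2 and 0.245% and 0.49% for CTCF. Without these summits the overlap of the factors differed by 15.2 percentage points in place of 17.8, an alternative chosen after seeing the data.

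SOX2 summits lay at the starts of protein-coding genes 4.55 times as often as CTCF summits. Within 1 kb of a start were 46.5% and 31.9% of SOX2 summits and 9.22% and 8.02% of CTCF summits. The means were 39.2% ± 10.3 (SD, n = 2) and 8.62% ± 0.845 (SD, n = 2). In asynchronous cells the shares were 13.4% and 13.3% for SOX2 and 9.32% and 9.80% for CTCF, so that both mitotic SOX2 lists stood above both asynchronous ones while the CTCF lists lay between 8.02% and 9.80% in both states. Between lists of the 408 strongest peaks the shares were 46.6% and 31.9% for SOX2 and 16.2% and 18.2% for CTCF. Starts were known for 17491 of 21883 protein-coding genes and for no gene of chromosome 18, whose summits were left out.

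The share at gene starts differed between the SOX2 replicates. It was 34.8% among the 359 peaks of replicate 1 that overlapped a peak of replicate 2 and 49.2% among the 1617 that did not. The latter had a median fold of 3.74 on 27 reads, against 5.22 on 39 reads for the former. Within replicate 1 the share was nearly level across strength, from 44.9% to 47.7% in the 4 parts of the list. SOX2 replicate 2 stood the other way, with 15.2% of the 46 placed peaks not found in replicate 1 at a start and 34.1% of those found. For CTCF the peaks not found in the other library lay at starts more often, at 13.7% against 7.51% in replicate 1 and 18.7% against 7.55% in replicate 2. By class, 36.4% of the SOX2-only regions (30.9 to 42.2), 21.6% of the shared SOX2 regions (12.5 to 34.6) and 6.95% of the CTCF-only regions (6.53 to 7.38) lay at a start.

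Inside genes and over 1 kb from a start lay 20.9% and 25.4% of SOX2 summits and 42.0% and 41.6% of CTCF summits. The median distance to the nearest start was 1710 and 11849 bp for SOX2 and 25524 and 25782 bp for CTCF. The SOX2 replicates were far apart in this median, and both were below CTCF. Peaks were narrower for SOX2, with medians of 325 and 256 bp against 430 and 383 bp, and with 408 peaks per list the widths were 496 and 256 bp against 996 and 746 bp.

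**Figure D4:**
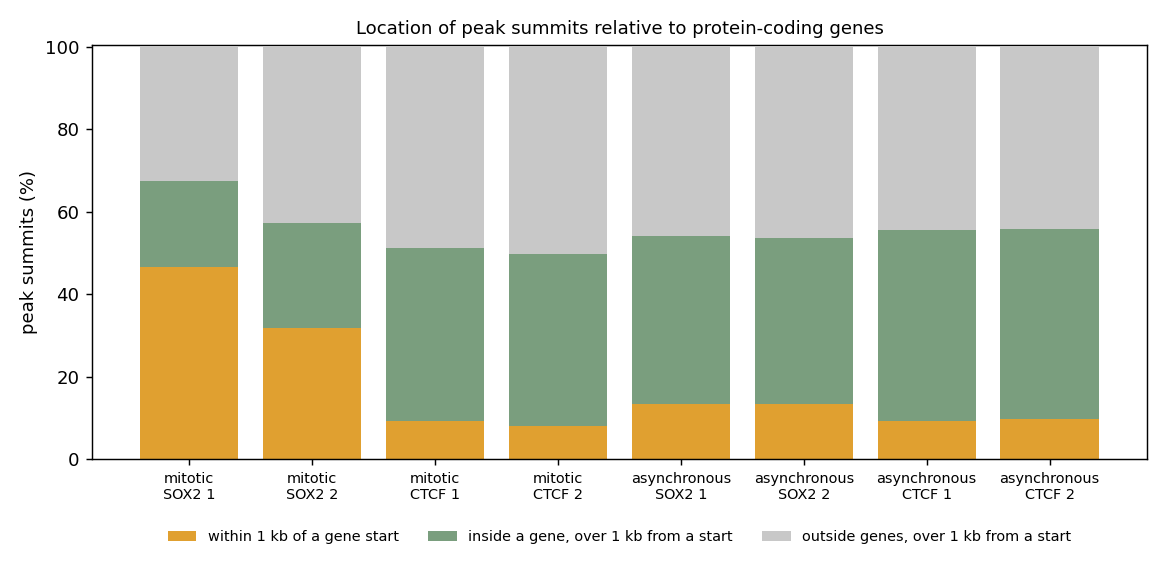
Stacked bars give the share of peak summits (y axis, %) within 1 kb of a protein-coding gene start, inside a gene but farther from a start, or outside genes, for each mitotic and asynchronous library. The mitotic SOX2 bars have the tallest start segments (46.5% and 31.9%), and the other 6 lie between 8.02% and 13.4%.

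Promoter windows with a SOX2 summit and those with a CTCF summit held the motifs in different shares, which were not tested. The motifs were searched on both strands of all 32817 windows used, from 250 bases before to 50 after a start, and 72 windows held a summit of a SOX2 region and 768 a summit of a CTCF region. CATTGT was found in 30.6% of the SOX2 windows (21.1 to 42.0), 7.94% of the CTCF windows (6.23 to 10.1) and 12.6% of all windows. ATTTGCAT was found in 11.1%, 1.04% and 1.74%, in the same order. AGGNGGC was found in 66.8% of the CTCF windows (63.4 to 70.0), 45.8% of the SOX2 windows (34.8 to 57.3) and 29.3% of all windows. GTTCNANNC differed little, at 12.5%, 9.24% and 9.33% for SOX2, CTCF and all windows. The median GC content was 66.5% in the SOX2 windows and 62.3% in the CTCF windows against 52.7% in all, and its part in the counts of the GC-rich CTCF core was not tested. Summits of both factors fell in 2 windows.

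The strongest SOX2-only region lay 18.3 kb from Klf13, the gene of a Krüppel-like factor (7:63956724-63957807). Its folds were 20.9 and 16.2 on 143 and 67 reads, and the nearest CTCF region was 103 kb away. The region nearest to Ermard (17:15207926-15208642) followed with folds of 17.5 and 15.8, and the region at the start of Srrm4 had 13.0 and 14.8. Next came a region inside Cdh4, which encodes R-cadherin, with a fold of 15.3 in replicate 1. Another, 3.17 kb from Tcf7, the gene of a Wnt pathway transcription factor, had folds of 12.1 and 11.9. Rif1, whose protein times the firing of replication origins, had a region 0.56 kb away (2:52071857-52072529) with folds of 10.9 and 9.74. The others of the 10 had Lrrc74a, Sertad4, the retinal lipid transporter gene Abca4 and Midn as the nearest gene.

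The distance from these 10 SOX2-only regions to mitotic CTCF varied widely. The nearest CTCF region lay 1.10 kb away at Lrrc74a, 1.26 kb at Srrm4 and 2.11 kb at Midn, but 89.5 to 260 kb away at 5 others, with a median of 56.9 kb. Over all 282 SOX2-only regions the median was 36.0 kb, and 52 (18.4%, 14.3 to 23.4) had a CTCF region within 10 kb. Of the 10, 7 had CTCF peaks in both asynchronous libraries, against 34.8% of all 282.

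Of the 10 strongest CTCF-only regions 7 lay inside genes and 2 outside, and the region on chromosome 18 was left out of this split. Over all placed CTCF-only regions 42.3% lay inside genes. The 408 strongest CTCF peaks did so less often (33.4% and 34.7%) than the full lists (42.0% and 41.6%). Among the 10 was a region inside Erc2, the gene of a synaptic active zone protein (14:27803450-27804923, folds 40.4 and 39.0 on 392 and 343 reads). Another lay 13.6 kb from Rbm19 (5:120102202-120103889, folds 42.7 and 37.1). Inside Coa5, a cytochrome c oxidase assembly gene (1:37419010-37420453), the folds were 39.3 and 33.4. Others lay inside Ctif, Iffo2, Apbb2 and Niban2, inside Pink1, which encodes a mitochondrial kinase, and near Gm33099. The region inside Ctcfl, the germline paralog of Ctcf (2:173097004-173098084), had folds of 35.2 and 25.1. The nearest SOX2 region was 103 kb away at Pink1 and 1253 kb away in the median of the 10, against a median of 1822 kb over all CTCF-only regions, so the strongest were not farther from SOX2. Peaks in both asynchronous SOX2 libraries were found at 0 of the 10 and at 19.5% of all CTCF-only regions. Folds are the authors' own values and depend on each library's background, so the 2 factors' folds are not levels on 1 scale. Over all CTCF-only regions 84 of 14238 (0.59%) had a SOX2 region within 10 kb.

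Most genes near a SOX2 region were also near a CTCF region. Within 50 kb of a region called in both mitotic libraries lay 781 of 21883 protein-coding genes for SOX2 (3.57%) and 13910 for CTCF (63.6%), and 683 (3.12%) for both. Within 10 kb the shares were 1.62%, 38.5% and 0.905%, and within 100 kb 5.95%, 74.6% and 5.57%. The 683 genes were 87.5% of the SOX2 genes and 4.91% of the CTCF genes. A CTCF region within 50 kb was thus common for any gene. Taking the nearest gene of each region within 50 kb, SOX2 had 304 and CTCF 7638 of the 21883 protein-coding genes. Of these, 185 were in common, or 60.9% of the SOX2 genes and 2.42% of the CTCF genes. This overlap was not tested against that among all genes.

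Of 30 pluripotency genes, 5 (16.7%, background 3.57%) had a SOX2 region within 50 kb and 21 (70.0%, background 63.6%) a CTCF region. The 5 were Rif1, Sall1, Phc1, Lin28a and Pou5f1, the gene of OCT4. Beside Pou5f1 the SOX2 region lay 1.96 kb from the gene with folds of 9.54 and 4.24 on 63 and 25 reads. Of its 5 CTCF regions the strongest was 46.2 kb away, with folds of 19.5 and 17.7, and none of the 5 overlapped the SOX2 region. Lin28a, which encodes an RNA-binding protein, had a SOX2 region within the gene (folds 7.73 and 5.31) and a CTCF region 16.9 kb away (folds 9.70 and 9.08). Phc1, a Polycomb gene, had SOX2 folds of 5.81 and 8.41 at 0.407 kb, in a region that also met a CTCF peak of replicate 1 alone, and a CTCF region with folds of 7.92 and 6.68 at 13.2 kb. Sall1, a zinc finger factor gene, had SOX2 folds of 6.35 and 8.16 at 23.5 kb and a CTCF peak in replicate 1 alone. Sox2 itself had a SOX2 peak in replicate 1 alone, and 3 CTCF regions, the strongest 2.12 kb away with a fold of 8.53 in replicate 2. Klf4 and Nanog likewise had CTCF regions in both libraries and a SOX2 peak in 1 library.

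Genes of chromosome structure and of mitosis had regions of either factor within 50 kb about as often as all genes. Of 24 cohesin, condensin and CTCF genes, 14 (58.3%) had a CTCF region and 1 (4.17%) a SOX2 region. The latter was Stag1, a cohesin subunit gene, with SOX2 folds of 4.02 and 5.10 and CTCF folds of 10.9 and 5.23, both within the gene. Ctcf had 5 CTCF regions and Esco1, of cohesin acetylation, 2, while the cohesin gene Rad21 had no peak of either factor in either mitotic library. Of 24 genes of mitotic kinases, cyclins and the checkpoint, 16 (66.7%) had a CTCF region, led by the phosphatase gene Cdc25c (folds 19.8 and 13.6 at 25.4 kb) and the survivin gene Birc5. Aurkb, the gene of Aurora B kinase, was the 1 with SOX2 regions, of which the stronger lay 11.5 kb away on tRNA genes, in a region shared with CTCF, with SOX2 folds of 7.46 and 7.57. For SOX2 the share of both lists, 4.17%, was close to the background of 3.57%, and for CTCF both were close to 63.6%. Within 10 kb the CTCF shares were 45.8% for the structure list and 20.8% for the mitotic list, against a background of 38.5%.

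Imprinted genes had SOX2 regions in 5 of 26 cases (19.2%, background 3.57%) and CTCF regions in 19 (73.1%, background 63.6%). The 5 were not separate cases, but lay at 2 SOX2 regions. Kcnq1, Cdkn1c and Phlda2 shared 1 SOX2 region (7:143461184-143461474, folds 4.60 and 6.03), and a CTCF region with folds of 10.8 and 7.83 began at 7:143466135. Gnas and Gnasas1 shared another SOX2 region (2:174295937-174296334, folds 2.97 and 4.78) which met a CTCF peak, and had CTCF peaks in replicate 1 alone. The strongest CTCF region of the list lay beside Sgce and Peg10, with folds of 14.6 and 10.5.

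Lineage genes had no SOX2 region called in both libraries within 50 kb, and the 2 lists stood on either side of the CTCF background of 63.6%. Of 20 mesoderm and endoderm regulators, 18 (90.0%) had a CTCF region within 50 kb and 0 a SOX2 region. Tbx6 had CTCF folds of 13.9 and 9.08 and Mesp1 of 13.0 and 9.27, and the endoderm gene Gata6 had low CTCF folds of 2.48 and 3.06 and a SOX2 peak in 1 library. Of 20 neural regulators 9 (45.0%) had a CTCF region and 0 a SOX2 region, with Nes, the nestin gene (folds 16.9 and 14.6), and Neurog2 (17.8 and 12.7) leading. The background for SOX2 was 3.57%, or fewer than 1 gene in a list of 20. At 100 kb 1 mesoderm and endoderm gene and 2 neural genes had a SOX2 region, where the background was 5.95%. Of 20 housekeeping genes 2 (10.0%) had a SOX2 region and 16 (80.0%) a CTCF region, both above the backgrounds of 3.57% and 63.6%. The 2 genes with SOX2 regions were cytoskeletal: Actb, where the SOX2 folds were 4.75 and 4.33 in a region shared with CTCF (CTCF folds 5.22 and 4.38, summits 2 to 135 bp apart), and Tubb5, where the SOX2 folds were 4.83 and 4.18.

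The X chromosome held few peaks of either factor in mitosis. It had 7 of 1976 SOX2 peaks in replicate 1 (0.354%, 0.172 to 0.729) and 1 of 408 in replicate 2 (0.245%, 0.0433 to 1.38). For CTCF it had 253 of 20142 (1.26%, 1.11 to 1.42) and 125 of 15338 (0.815%, 0.684 to 0.97). All 4 shares were below those of the asynchronous lists, which were 1.85% and 1.79% for SOX2 and 2.18% and 2.05% for CTCF. The difference between the factors did not hold in lists of 408 peaks, where X had 0.0% and 0.245% of SOX2 peaks and 0.735% and 0.245% of CTCF peaks. The only X-linked SOX2 region in both libraries lay 2.83 kb from Txlng (X:162832150-162832413) with folds of 3.40 and 5.10. Within 50 kb of a region in both libraries lay 2 of 966 X-linked genes for SOX2 (0.207%) and 145 for CTCF (15.0%). Of 10 X inactivation centre genes, among them Xist and Tsix, 0 had a region of either factor in both libraries.

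On 13 of 21 chromosomes (61.9%) the shares of peaks did not overlap between the factors. SOX2 was higher on 6 (28.6%) and CTCF on 7 (33.3%). The 7 included Y, with 1 and 0 SOX2 peaks, and chromosome 4, at 6.63% and 6.13% for SOX2 against 6.68% and 6.81%. For any chromosome, 2 libraries against 2 cannot give an exact two-sided permutation p under 0.333, so separation on many chromosomes can arise without a difference. The largest difference of the 21 was on chromosome 5, with 6.12% and 5.15% of SOX2 peaks and 8.28% and 8.41% of CTCF peaks. Chromosome 13 held 6.02% and 4.17% of SOX2 peaks and 3.77% and 3.58% of CTCF peaks, where the SOX2 replicates differed by more than the distance from replicate 2 to CTCF. Chromosome 11 held the most SOX2 peaks, at 9.01% and 12.5%, but overlapped CTCF at 8.94% and 9.37%. In asynchronous cells chromosome 5 also held fewer SOX2 than CTCF peaks (means of 6.43% and 7.38%). On chromosome 17, with 5.36% and 4.90% of mitotic SOX2 peaks against 4.60% and 4.58% of CTCF peaks, the asynchronous means stood the other way, at 4.31% and 4.50%.

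**Figure D5:**
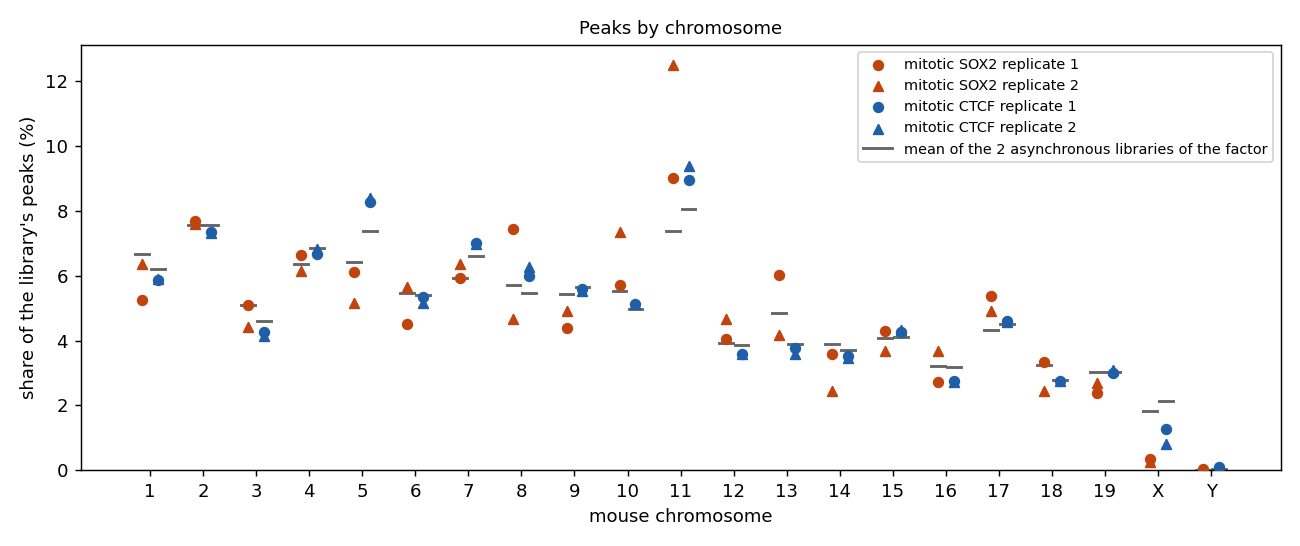
Points give the share of each mitotic library's peaks (y axis, %) on each mouse chromosome (x axis), with circles for replicate 1 and triangles for replicate 2, and grey lines the mean of the 2 asynchronous libraries of the same factor. The factors are farthest apart on chromosome 5, where both CTCF points (8.28% and 8.41%) lie above both SOX2 points, and all 4 points on X lie below their grey lines.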

How the data were processed

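Peak lists of 4 mitotic libraries (2 SOX2, 2 CTCF) were compared, with the 4 asynchronous lists as background. The authors deposited 1 narrowPeak list per library, not pooled. The submitters' processing notes name MACS2 2.1.1.20160309, BWA 0.7.17, CASAVA 1.4, SAMtools and the build mm10. No source used here gives options or the control library. The deposited fold is the ratio of coverage at the summit to local background, and the deposited −log10 p-values and −log10 q-values belong to the same summit. The deposited integer score per peak and the fields of strand and name were not used. Fold and −log10 q served to rank or filter peaks of 1 list and were never compared as levels across lists.

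Whole reads at summits were recovered from fold and −log10 p under MACS2's Poisson model (97.8% to 100.0% of peaks within 0.002 of a whole number). The lowest background was divided by the shortest peak width to give reads per 100 bp. Precision is limited by these depths, and read totals were not used here. Peaks overlapped if they shared 1 bp. Overlapping peaks of both libraries of a factor were merged into regions. Distances ran from summits. Gene positions came from RefSeq on GRCm38.p6 (21883 protein-coding and 408 tRNA genes), and starts and promoters from a RefSeq promoter table, which covered 17491 of the genes and held no window on chromosome 18.

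The factors were compared over 11 measures by exact two-sided permutation of the 2 against 2 libraries, and shares of regions carry 95% Wilson intervals. Genes were named by rule: the 10 strongest shared, SOX2-only and CTCF-only regions, up to 6 genes per list and 6 promoters (2 per class, shared ones ranked over 4 libraries). Of the strongest shared regions, 1 is not reported here. Genes without a region, those at tRNA genes and those with low folds were named after their values were seen. Members, gene lists and tests were chosen with earlier results of these data known. Of the X inactivation centre list, 10 of 12 names matched, and of the imprinted list 26 genes did, with Nespas unmatched. Alternatives were a −log10 q or fold of at least 5, leaving out each library, pairing by replicate number, lists of 408 peaks, other overlaps, windows and gene distances, and, chosen after seeing the data, either boundary of all protein-coding genes in place of starts and leaving out summits near tRNA genes. The overlap function was tested on simulated intervals against a direct comparison of all intervals, and its count against bedtools 2.31.1. The function for the distance between points was tested against a direct comparison alone. Python 3.11.15, numpy 2.4.6, pandas 2.3.3 and scipy 1.17.1 were used.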

Additional observations from a re-analysis of the deposited data

How the results depend on the processing

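Over 11 measures, 109 alternative values were computed, of which 106 kept the direction and 3 did not. The 106 are not separate checks, since pairing by replicate number left the measures that do not use the other factor's list unchanged. The 3 came from lists of 408 peaks: the difference SOX2 minus CTCF was -0.123 percentage points in place of 17.8 for overlap with the other factor, 0.0 in place of 9.28 for summits within 100 bp, and 171694 bp in place of -284654 bp for the median distance. Equal length makes the first of these values small by construction, since the overlapping peaks number nearly the same from either side. For the same reason the difference of 17.8 percentage points in the full lists follows their unequal lengths. With these lists the difference in nearest genes shared with the other factor was 0.649 in place of 59.3 percentage points, and the factors overlapped. No setting could bring the exact p below 0.333, the smallest that 2 against 2 allow. Leaving out each library gave 11.1 to 19.4 percentage points for overlap and 23.3 to 37.9 for gene starts. With lists of 408 peaks the differences were also -495 in place of -116 bp for width, -12.1 in place of -18.6 and -0.368 in place of -0.736 percentage points for gene interiors and chromosome X, and -10490 in place of -18873 bp for the distance to a start. With a fold of at least 5 the difference was -7900 in place of -16548 for peak number, 7.81 for overlap, 3.57 for summits within 100 bp and -1277864 bp for the median distance, and with a −log10 q of at least 5 the last was -477786 bp. Against peaks in both libraries of the other factor, the difference was 4.71 percentage points within 100 bp and -1611408 bp in distance. Within 1 kb in place of 100 bp the share of summits near the other factor differed by 23.1 percentage points. With either boundary of all genes in place of starts, the distance to a gene differed by -9431 bp in place of -18873. Shared SOX2 regions numbered 29 at a −log10 q of at least 5 and 42 at an overlap of 50% of the shorter interval, against 52, and the share of CTCF regions that were shared was 0.226% at that −log10 q against 0.351%.

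Replicate numbers are shared between the factors, but nothing says that they mark a shared culture or day, and with 2 pairs a sign change cannot give a p under 0.5. With the replicate number as a block, so that each library met the library of its own number alone, the differences were 15.2 percentage points for overlap, 6.72 for summits within 100 bp, -918646 bp for the median distance and 58.3 percentage points for shared nearest genes. The other 7 measures do not use the other factor's list, so the block gave the same mean differences: -16548 for peak number, -116 bp for width, 30.6, -18.6, 4.72 and -0.736 percentage points for gene starts, gene interiors, tRNA genes and chromosome X, and -18873 bp for the distance to a start.

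The gene lists depended on the distance allowed. At 10 kb CTCF regions were found at 12 of 30 pluripotency, 11 of 24 structure and 5 of 24 mitotic genes. They were also found at 10 of 26 imprinted, 5 of 20 neural, 13 of 20 mesoderm and endoderm and 10 of 20 housekeeping genes. The pluripotency and imprinted shares were close to the background of 38.5%. The mitotic and neural shares were below it, and the structure, mesoderm and endoderm, and housekeeping shares above it. SOX2 regions at 10 kb were found at 4 pluripotency, 3 imprinted, 2 housekeeping, 1 structure and 1 mitotic gene, where the background was 1.62%. At 100 kb they were found at 2 of 20 neural genes, where the background was 5.95%. SOX2 replicate 2 was the shallowest and shortest list, so absence of a SOX2 peak is not absence of SOX2.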
